A study of Homo sapiens with 9 samples.

Results

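The genes described here are 50 interferon-stimulated effector genes, the genes that cells switch on to block virus entry, translation, replication and release. They were taken as a list of symbols and read from the gene table by the symbol that follows the Ensembl identifier. All 50 were found among the 58051 genes of the table, and all 50 were among the 14513 genes with enough reads to be tested. CMPK2 had enough reads only in the p53 KO libraries. Interferons bind receptors at the cell surface, and the JAK kinases then activate transcription factors that join IRF9 in a complex that binds the interferon-stimulated response element (ISRE) in the promoters of these genes. Factors of the IRF family that act downstream of RNA and DNA sensors can bind the same element without any interferon, and many of the genes have a basal level in epithelial cells.

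RNA was sequenced from A431 cells, a human epidermoid carcinoma line that carries an endogenous mutant p53, in 3 groups of 3 libraries. Parental cells were not edited, Ctrl cells were a CRISPR line made with an empty vector that kept the mutant p53, and p53 KO cells were a CRISPR line in which p53 was targeted. All were kept in DMEM with 10% FBS, grown from single colonies, plated in 6-well plates and harvested 48 h after settling, and the labels name no interferon or other added agent. The sources used here do not say whether the 3 libraries of a group came from different colonies or cultures, so the p-values measure the spread between these libraries, which may be technical, and a difference that belongs to a line cannot be told apart from one that belongs to the loss of p53.

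Library totals ranged from 19783778 to 29840452 counts, so that 1 count was worth 0.0335 to 0.051 CPM (counts scaled to a common library size). The summed level of 7 epithelial markers was 10200 to 18600 CPM, of which EGFR alone made up 8660 to 17300 CPM and the other 6 markers 1280 to 1510 CPM, with KRT14 close to 0. That of 5 immune markers was 0.784 to 1.64 CPM, with PTPRC, CD3E and CLEC4C at 0 in all 9 libraries, that of 3 endothelial markers 0.383 to 1.16 CPM, and that of 3 fibroblast markers 2.38 to 4.42 CPM, with COL3A1 at 0. Ctrl replicate 1 stood apart from its group by transcript length, with a median log2 deviation of 0.18 over the shortest transcripts (the bottom quartile of length) and -0.23 over the longest (the top quartile), and p53 KO replicate 3 deviated the same way (0.09 and -0.10), while Ctrl replicate 3 deviated the other way (-0.12 and 0.15).

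Of the 50 genes, 11 were called higher in p53 KO than in parental cells, that is, with an adjusted p of at most 0.05 and a log2 fold change above 1.5 (22.0% of the genes, against 1.23% of all genes tested). Against Ctrl cells 8 were called higher (16.0%, against 2.18% of all genes tested). Both comparisons called 7 of the 50 higher (14.0%, against 0.758% of all genes tested), namely RSAD2, CMPK2, IFIT3, OAS2, OASL, MX2 and IFI44L, which are referred to as strongly induced. CMPK2 is counted in all of these although only its p53 KO libraries reached the read filter, so its calls are no independent support. None was called lower by edgeR or by DESeq2, against 0.717% and 1.11% of all genes tested. At an unadjusted p under 0.05 in edgeR, 4 and 5 genes were lower. The share of all genes tested at that threshold was not counted. In bulk RNA, more cells with a gene switched on and more RNA per cell cannot be told apart. By adjusted p alone, 32 of the 50 rose against parental cells (9.77% of all genes tested) and 29 against Ctrl cells (15% of all genes tested), and 26 rose against both (52.0%, against 6.46% of all genes tested).

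At the other end, 9 of the 50 genes had an adjusted p above 0.05 in both comparisons (18.0%, against 64.9% of all genes tested), and are referred to as unmoved. An adjusted p above the threshold does not show that a gene did not change, so the interval of each difference is given with the genes. They were EIF2AK2, GBP1, PARP12, PARP14, BST2, LY6E, SP100, TRIM14 and IFI35. The other 34 genes lay between these groups. The median log2 fold change of the 50 genes was 0.62 against parental cells (from -0.43 to 5.40), where the median of all genes was 0.0065, and 0.53 against Ctrl cells (from -0.67 to 6.21), where it was 0.006. Both comparisons use the same 3 p53 KO libraries, so they are not independent of each other.

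**Figure D1:**
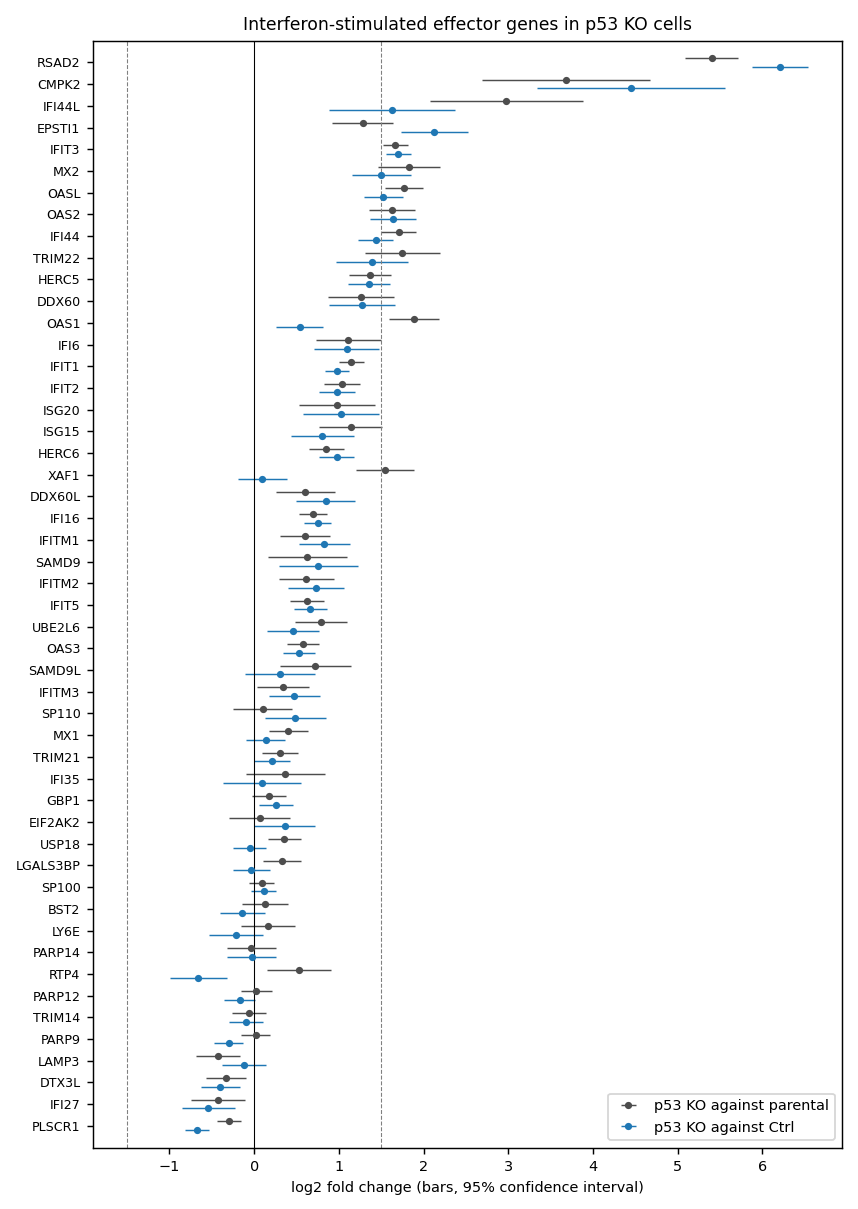
Log2 fold change of each of the 50 genes in p53 KO cells against parental (grey) and Ctrl cells (blue), with 95% confidence intervals as bars and dashed lines at the threshold of 1.5 on either side. RSAD2 stands alone at 5.40 and 6.21, most genes lie above 0, and PLSCR1 lies lowest against Ctrl cells at -0.67. The points of CMPK2 rest on 0 to 3 counts in each control library.

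The promoters of the strongly induced genes are shown because the ISRE is the sequence by which the pathway is known to reach these genes. Each line gives the 250 bases before the start of the canonical transcript, 5′ to 3′ on the strand of the gene, from RefSeq on build GRCh38.p14, with each match to the ISRE core (GAAA, any 2 bases, and GAAA again) on either strand in capitals. The windows are chr2:6877527-6877776 (+ strand) for RSAD2, chr10:89327747-89327996 (+ strand) for IFIT3, chr1:78620198-78620447 (+ strand) for IFI44L and chr2:6865908-6866157 (- strand) for CMPK2.
RSAD2: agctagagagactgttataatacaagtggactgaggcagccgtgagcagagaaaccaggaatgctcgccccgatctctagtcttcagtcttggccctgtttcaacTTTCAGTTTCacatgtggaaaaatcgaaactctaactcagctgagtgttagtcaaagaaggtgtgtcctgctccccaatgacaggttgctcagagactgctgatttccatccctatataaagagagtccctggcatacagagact
IFIT3: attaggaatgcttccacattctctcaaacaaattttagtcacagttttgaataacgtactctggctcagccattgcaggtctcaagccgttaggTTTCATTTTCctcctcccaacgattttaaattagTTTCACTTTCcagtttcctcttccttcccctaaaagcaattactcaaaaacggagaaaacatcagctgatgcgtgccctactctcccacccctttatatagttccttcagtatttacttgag
IFI44L: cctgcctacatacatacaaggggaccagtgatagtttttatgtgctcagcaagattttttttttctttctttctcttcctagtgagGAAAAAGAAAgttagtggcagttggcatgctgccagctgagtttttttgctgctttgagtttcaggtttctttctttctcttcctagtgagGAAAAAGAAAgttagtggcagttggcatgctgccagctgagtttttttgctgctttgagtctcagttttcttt
CMPK2: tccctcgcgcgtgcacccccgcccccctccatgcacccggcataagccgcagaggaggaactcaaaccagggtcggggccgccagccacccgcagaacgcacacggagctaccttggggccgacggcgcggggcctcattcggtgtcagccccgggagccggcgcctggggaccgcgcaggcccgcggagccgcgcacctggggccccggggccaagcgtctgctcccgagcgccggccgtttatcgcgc
RSAD2 held 1 match, at position -145 from the start, IFIT3 held 2, at -156 and -122, and IFI44L held 2, at -164 and -73, inside a stretch that is repeated. The window of CMPK2 held none.

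For comparison, the same window is shown for 3 of the unmoved genes, with matches to the same core in capitals. They are chr19:17405631-17405880 (- strand) for BST2, chr3:122680589-122680838 (+ strand) for PARP14 and chr9:98119223-98119472 (- strand) for TRIM14.
BST2: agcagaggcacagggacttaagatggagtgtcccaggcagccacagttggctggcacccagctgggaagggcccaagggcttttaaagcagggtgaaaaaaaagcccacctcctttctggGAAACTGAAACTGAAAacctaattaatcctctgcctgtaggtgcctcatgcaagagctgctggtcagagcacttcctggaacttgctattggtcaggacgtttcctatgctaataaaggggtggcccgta
PARP14: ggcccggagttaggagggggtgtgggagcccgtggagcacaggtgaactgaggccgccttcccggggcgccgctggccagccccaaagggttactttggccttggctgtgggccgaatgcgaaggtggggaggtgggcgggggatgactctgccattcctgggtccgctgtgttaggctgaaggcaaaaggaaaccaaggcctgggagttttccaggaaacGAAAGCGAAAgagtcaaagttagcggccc
TRIM14: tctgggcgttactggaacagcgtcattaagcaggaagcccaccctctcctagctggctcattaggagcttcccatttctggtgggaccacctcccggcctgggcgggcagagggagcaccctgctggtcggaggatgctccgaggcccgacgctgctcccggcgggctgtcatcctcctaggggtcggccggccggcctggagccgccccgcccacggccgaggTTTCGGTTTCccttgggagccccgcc
BST2 held 2 overlapping matches, at -130 and -124, and PARP14 and TRIM14 held 1 each, at -29 and -26. Among unmoved genes not shown, EIF2AK2, PARP12 and GBP1 held a match at -6, -10 and -127, and SP100 and IFI35 held none. The matches of BST2 and GBP1 thus lay within the range of those of RSAD2, IFIT3 and IFI44L, and the others lay nearer the start.

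RefSeq windows of 300 bases, from 250 before to 50 after the start, were matched for 41 of the 50 genes, and no window was matched for IFIT2, OAS2, OASL, MX2, LY6E, IFITM2, USP18, TRIM22 and LAMP3. The ISRE core was in 30 of the 41 windows (73.2%) and in 991 of the windows of 27305 genes (3.63%). By group, it was in 3 of 4 strongly induced genes, 6 of 8 unmoved genes (EIF2AK2, GBP1, PARP12, PARP14, BST2 and TRIM14, but not SP100 or IFI35) and 21 of the 29 others. The palindromic motif TTCNNNGAA, known as the gamma-activated site, was in 10 of the 41 windows (24.4%, against 7.8% of all genes), which were none of the 4 strongly induced, 3 of the 8 unmoved and 7 of the 29 others. The core with a spacer of 1 base, GAAANGAAA, was searched after the first had been counted and was in 14 of the 41 windows (34.1%, against 3.21%). The motifs overlapped each other in 4 of the windows. A match describes the letters of the window and does not show a bound site, and the presence of a match did not separate the strongly induced from the unmoved genes in these windows.

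RSAD2 encodes viperin, a radical SAM enzyme that turns CTP into a nucleotide that ends viral RNA chains. Its level was 2.37, 2.08 and 2.17 CPM in parental cells, 1.07, 1.65 and 0.991 CPM in Ctrl cells and 99.5, 92.3 and 88.3 CPM in p53 KO cells. The lowest p53 KO library thus lay far above the highest control library. The change was 42.2-fold against parental cells (log2 fold change 5.40, SE 0.14, adjusted p = 8.8e-09) and 73.9-fold against Ctrl cells (6.21, SE 0.15, adjusted p = 1.33e-09). Leaving out each library in turn kept it between 5.35 and 5.46 and between 6.05 and 6.50, respectively.

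CMPK2, the mitochondrial kinase of CMP and UMP, lies beside RSAD2 on chromosome 2, and the annotated spans of the neighbours overlap on opposite strands. Parental libraries held 3, 1 and 3 counts of CMPK2, Ctrl libraries 1, 3 and 0, and p53 KO libraries 41, 26 and 30. The controls were at or under a floor of 3 counts per library, so the p53 KO level of 1.28 ± 0.262 CPM (SD, n = 3) was at least 10.5-fold higher than in parental and at least 10.3-fold higher than in Ctrl cells (adjusted p = 0.000338 and 8.03e-05). CMPK2 passed the read filter only through the p53 KO libraries, so these p-values are not independent of that filter. Per kb of canonical transcript, the p53 KO level of RSAD2 was 27.4 CPM and that of CMPK2 0.415 CPM, so the genes that rose furthest ended at very different levels. The library kit marks strand, but whether the counting used it is not given in the sources used here, so reads of the overlapping part cannot be assigned with certainty.

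Some of the IFIT proteins bind viral RNA by its 5′ end, and the 4 IFIT genes of the list lie within 138 kb on chromosome 10. IFIT3 was at 128, 130 and 141 CPM in parental cells, 126, 134 and 129 CPM in Ctrl cells and 441, 411 and 414 CPM in p53 KO cells, so that the control groups were alike and the p53 KO libraries lay apart. It rose 3.17-fold against parental cells (log2 fold change 1.67, SE 0.07, adjusted p = 2.14e-07) and 3.26-fold against Ctrl cells (1.70, SE 0.07, adjusted p = 6.09e-08). Its 3 neighbours also rose against both controls but were not called. IFIT1 went from 78.8 to 94.9 CPM in the 6 control libraries to 180 to 188 CPM (log2 fold change 1.15 and 0.98), IFIT2 had log2 fold changes of 1.03 and 0.98, and IFIT5 of 0.62 and 0.66. Parts of IFIT1, IFIT2 and IFIT3 overlap LIPA, which lies on the opposite strand and had log2 fold changes of 0.33 and 0.10.

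The oligoadenylate synthetases sense double-stranded RNA and make the messenger that activates RNase L, while OASL lacks that activity and acts in RNA sensing. OAS2 was at 6.50, 7.35 and 6.50 CPM in parental cells, 7.19, 7.59 and 5.49 CPM in Ctrl cells and 22.5, 20.8 and 19.6 CPM in p53 KO cells, with log2 fold changes of 1.63 (SE 0.12, adjusted p = 1.38e-05) and 1.64 (SE 0.12, adjusted p = 4.98e-06). OASL was at 84.1, 86.4 and 98.0 CPM, 121, 102 and 93.7 CPM, and 319, 284 and 310 CPM in the same order, with log2 fold changes of 1.77 (SE 0.10, adjusted p = 2.16e-06) and 1.53 (SE 0.10, adjusted p = 2.11e-06). In both genes every p53 KO library lay above every control library. OAS3, the largest enzyme of the family, rose less (log2 fold change 0.57 and 0.53), from 189 to 225 CPM in the controls to 272 to 330 CPM.

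OAS1 differed between the controls. It was at 14.2, 17.2 and 17.0 CPM in parental cells, 48.8, 39.7 and 35.1 CPM in Ctrl cells and 65.4, 55.6 and 57.8 CPM in p53 KO cells. The rise was 1.89 on the log2 scale against parental (adjusted p = 7.59e-06) and 0.54 against Ctrl cells (adjusted p = 0.00783), and the 3 groups did not overlap. EIF2AK2, or PKR, the kinase that stops translation on double-stranded RNA, did not pass the test in either comparison. Its log2 fold changes were 0.07 (95% interval from -0.29 to 0.43) and 0.36 (from -0.0015 to 0.72). Its Ctrl libraries ranged from 111 CPM in replicate 1 to 189 CPM, and without Ctrl replicate 1 and p53 KO replicate 3 it passed against both controls (0.17, adjusted p = 0.0422, and 0.28, adjusted p = 0.00428), and it also passed against Ctrl cells without Ctrl replicate 3.

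MX1 and MX2 are dynamin-like GTPases that trap viral nucleoproteins or capsids. MX2 was at 1.76, 2.19 and 3.04 CPM in parental cells, 2.91, 2.71 and 3.09 CPM in Ctrl cells and 8.39, 8.44 and 7.74 CPM in p53 KO cells. All p53 KO libraries lay above all controls, with log2 fold changes of 1.83 (SE 0.16, adjusted p = 4.65e-05) and 1.5004 (SE 0.16, adjusted p = 5.22e-05), and the latter value lay so close to the threshold of 1.5 that the call against Ctrl cells was lost without parental replicate 2, p53 KO replicate 1, p53 KO replicate 2 or Ctrl replicate 2. MX1, which lies beside MX2 on chromosome 21, moved less, with 0.40 against parental (adjusted p = 0.0218, lost without any 1 of the parental libraries, p53 KO replicate 1 or p53 KO replicate 3) and 0.14 against Ctrl cells (adjusted p = 0.357). GBP1, a guanylate-binding GTPase best known for its response to interferon gamma, was at 27.6, 29.6 and 28.1 CPM in parental cells, 24.7, 27.6 and 27.9 CPM in Ctrl cells and 33.3, 34.0 and 28.7 CPM in p53 KO cells. It counted as unmoved with 0.17 (95% interval from -0.03 to 0.37) and 0.26 (from 0.06 to 0.46, adjusted p = 0.0505), but passed against Ctrl cells without p53 KO replicate 3, by DESeq2 and under a filter of 10 counts per library. Without Ctrl replicate 1 and p53 KO replicate 3 it passed against parental (0.24, adjusted p = 0.00974) and against Ctrl cells (adjusted p = 0.00548).

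IFI44L and IFI44 are neighbours on chromosome 1 with weak homology to GTPases and a poorly known function. IFI44L was counted 4, 3 and 6 times in parental, 9, 15 and 10 times in Ctrl and 60, 26 and 24 times in p53 KO libraries. All 3 p53 KO libraries lay above the controls, and the log2 fold changes were 2.98 (SE 0.41, adjusted p = 0.000622) and 1.63 (SE 0.34, adjusted p = 0.00392), the wide errors going with few counts. IFI44 was far more abundant, at 62.2, 68.4 and 75.9 CPM in parental, 85.9, 87.5 and 76.7 CPM in Ctrl and 238, 208 and 229 CPM in p53 KO cells. Its log2 fold changes were 1.71 (SE 0.09, adjusted p = 1.89e-06) and 1.43 (SE 0.09, adjusted p = 1.7e-06), just short of a call against Ctrl cells.

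Leaving out single libraries changed which genes were called against both controls. The number was 4 without p53 KO replicate 1 (IFI44L, MX2 and OASL were lost) and 4 without Ctrl replicate 3 (IFI44L, OAS2 and OASL were lost), and 7 without both Ctrl replicate 1 and p53 KO replicate 3, which deviated in the same direction by transcript length. RSAD2, CMPK2 and IFIT3 were called under every one of these, though CMPK2 entered each test only through its p53 KO counts.

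**Figure D2:**
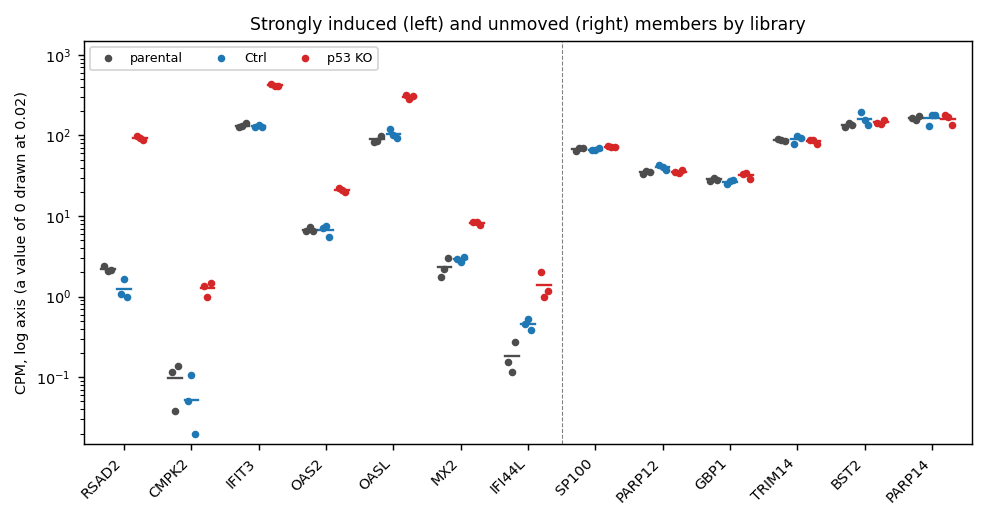
CPM of the 7 strongly induced genes (left of the dashed line) and of 6 unmoved genes (right) in each library, as points, with group means as short lines, on a log axis. The p53 KO points lie above both control groups in all 7 strongly induced genes, and among the 6 unmoved genes they do so only in SP100, at 71.0 to 73.3 CPM.

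The ISG15 system attaches a ubiquitin-like protein to newly made proteins. ISG15 itself was at 52.3, 55.1 and 54.3 CPM in parental, 83.0, 70.8 and 49.9 CPM in Ctrl and 113, 101 and 142 CPM in p53 KO cells (log2 fold change 1.14 and 0.81). HERC5, its main ligase, was at 16.1, 17.5 and 20.5 CPM, 16.2, 19.3 and 19.0 CPM, and 50.6, 42.9 and 46.6 CPM in the same order. It rose by 1.37 (SE 0.11, adjusted p = 2.33e-05) and 1.36 (SE 0.11, adjusted p = 9.5e-06) on the log2 scale. HERC6, beside it on chromosome 4, rose by 0.85 and 0.97, and UBE2L6, the conjugating enzyme, by 0.79 and 0.46, the latter lost without any 1 of the p53 KO libraries, Ctrl replicate 2 or Ctrl replicate 3. USP18, which removes ISG15 and damps interferon receptor signalling, rose against parental (0.35, adjusted p = 0.0178, lost without parental replicate 1, parental replicate 2, p53 KO replicate 1 or p53 KO replicate 3) but had -0.05 against Ctrl cells (adjusted p = 0.686). None of the 5 genes of the system was called. Of all genes tested, 1.23% and 2.18% were called higher, so no call among 5 genes is close to those shares.

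The ADP-ribosylation genes, PARP9, PARP12, PARP14 and DTX3L, went the other way or did not pass. PARP9 and DTX3L form a complex, share a promoter region on chromosome 3 and overlap there on opposite strands. PARP9 was at 98.0 to 112 CPM in p53 KO, 123 to 140 CPM in Ctrl and 104 to 107 CPM in parental libraries, and fell by 0.30 on the log2 scale against Ctrl cells (adjusted p = 0.0133, lost without p53 KO replicate 3 or Ctrl replicate 2), with 0.02 against parental cells. DTX3L was at 160, 158 and 165 CPM in parental, 140, 184 and 182 CPM in Ctrl and 135, 133 and 116 CPM in p53 KO cells. All p53 KO libraries of DTX3L lay below all controls, and it fell by 0.33 on the log2 scale against parental (adjusted p = 0.0496) and by 0.40 against Ctrl cells (adjusted p = 0.0147). The former no longer passed without any 1 of the parental libraries, any 1 of the p53 KO libraries or Ctrl replicate 2, and the latter without p53 KO replicate 3 or Ctrl replicate 2. PARP12 was at 32.9, 36.5 and 35.6 CPM in parental, 42.6, 40.8 and 37.2 CPM in Ctrl and 34.9, 34.3 and 37.7 CPM in p53 KO cells, with log2 fold changes of 0.02 (95% interval from -0.16 to 0.21) and -0.17 (from -0.36 to 0.01). PARP14 was at 164, 157 and 174 CPM, 131, 182 and 180 CPM, and 178, 170 and 136 CPM in the same order, with -0.03 in both comparisons and intervals from -0.33 to 0.26 and from -0.32 to 0.26.

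Among the membrane proteins, BST2 (tetherin), which holds budding virus at the cell surface, was at 128, 142 and 134 CPM in parental, 196, 154 and 133 CPM in Ctrl and 144, 138 and 157 CPM in p53 KO cells. The groups overlapped, with log2 fold changes of 0.12 (95% interval from -0.15 to 0.39) and -0.14 (from -0.41 to 0.13). LY6E, a lipid-anchored surface protein, ranged from 243 to 398 CPM over the 9 libraries and did not pass the test. Its log2 fold changes were 0.16 (95% interval from -0.16 to 0.48) and -0.21 (from -0.53 to 0.10). Its highest value was in Ctrl replicate 1, where short transcripts read high. Without Ctrl replicate 3 its difference from Ctrl cells passed (-0.38, adjusted p = 0.0283). The IFITM proteins block fusion of the virus envelope, and IFITM1, IFITM2 and IFITM3 lie within 25.8 kb on chromosome 11. IFITM1 rose by 0.60 and 0.83 and IFITM2 by 0.62 and 0.73, while IFITM3, the most abundant at 91.9 to 180 CPM, rose against Ctrl cells (0.47, adjusted p = 0.0238) and missed against parental (0.34, adjusted p = 0.114). Against parental cells the rise of IFITM1 was lost without parental replicate 1 and that of IFITM2 without parental replicate 1, parental replicate 3 or p53 KO replicate 3, and against Ctrl cells that of IFITM3 was lost without p53 KO replicate 1, p53 KO replicate 3, Ctrl replicate 2 or Ctrl replicate 3. Their sequences are near-identical in places, so these 3 values are uncertain. PLSCR1, a phospholipid scramblase, was at 76.5, 80.5 and 78.0 CPM in parental, 98.2, 105 and 103 CPM in Ctrl and 64.8, 63.5 and 63.2 CPM in p53 KO cells. Its groups did not overlap, and it fell by 0.67 against Ctrl cells on the log2 scale (SE 0.06, adjusted p = 2.62e-05) and also against parental cells (adjusted p = 0.00884).

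Of the nuclear and TRIM proteins, IFI16, a DNA sensor, rose by 0.70 and 0.75, from 94.1 to 106 CPM in the controls to 156 to 176 CPM. TRIM22, a RING-type ubiquitin ligase, was at 0.650, 1.15 and 0.969 CPM in parental, 1.17, 1.19 and 1.18 CPM in Ctrl and 3.42, 2.81 and 3.08 CPM in p53 KO cells. It was called against parental cells (1.75, SE 0.20, adjusted p = 0.00022) and stayed under the fold threshold against Ctrl cells (1.39, SE 0.19, adjusted p = 0.000289). SP100, a component of nuclear bodies, was at 64.8, 70.1 and 69.4 CPM in parental, 65.6, 66.0 and 69.1 CPM in Ctrl and 73.3, 72.8 and 71.0 CPM in p53 KO cells. Its 3 p53 KO libraries lay above all 6 controls, yet the log2 fold changes were 0.09 (95% interval from -0.06 to 0.23) and 0.11 (from -0.03 to 0.26). TRIM14, an adaptor of sensor signalling, was at 90.6, 89.0 and 85.4 CPM, 79.2, 98.4 and 94.3 CPM, and 88.6, 87.4 and 78.0 CPM in the same order, with -0.06 (from -0.26 to 0.14) and -0.10 (from -0.30 to 0.10). SP110 and TRIM21 were near the threshold. SP110 passed against Ctrl cells (0.48, adjusted p = 0.0454, lost without any 1 of the p53 KO libraries, parental replicate 3, Ctrl replicate 1 or Ctrl replicate 2) and TRIM21 against parental cells (0.31, adjusted p = 0.049, lost without any 1 of the parental libraries, any 1 of the p53 KO libraries or Ctrl replicate 3).

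Of the helicases and RNA effectors, DDX60, a helicase linked to RNA sensing, was at 99.7, 112 and 121 CPM in parental, 80.4, 128 and 121 CPM in Ctrl and 318, 265 and 216 CPM in p53 KO cells. It rose by 1.26 (SE 0.18, adjusted p = 0.000701) and 1.28 (SE 0.18, adjusted p = 0.000317), and its lowest p53 KO value was in replicate 3. DDX60L, its neighbour on chromosome 4, rose by 0.60 and 0.84, the former lost without any 1 of the parental libraries, p53 KO replicate 1 or p53 KO replicate 2. SAMD9 and SAMD9L restrict poxviruses and lie side by side on chromosome 7. SAMD9 passed against Ctrl cells (0.76, adjusted p = 0.0199, lost without p53 KO replicate 1 or p53 KO replicate 2) and SAMD9L against parental cells (0.72, adjusted p = 0.024, lost without any 1 of the parental libraries, p53 KO replicate 1 or p53 KO replicate 2). ISG20, an exonuclease of RNA, rose by 0.98 and 1.02 from at most 2.37 CPM in the controls to 3.42, 3.84 and 5.46 CPM.

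The remaining effectors had mixed directions. EPSTI1 was at 2.37, 2.35 and 2.44 CPM in parental, 1.43, 0.984 and 1.60 CPM in Ctrl and 6.04, 5.02 and 6.40 CPM in p53 KO cells. Its groups did not overlap, and it was called against Ctrl cells (2.13, SE 0.18, adjusted p = 1.04e-05) but not against parental cells, where it rose by 1.28 (SE 0.16, adjusted p = 0.000388). IFI6, a mitochondrial and endoplasmic reticulum protein that protects cells from death, rose by 1.11 and 1.09, from at most 6.99 CPM in the controls to 10.4 to 12.1 CPM. IFI27, of the same family, fell by 0.54 on the log2 scale against Ctrl cells (adjusted p = 0.0152, lost without p53 KO replicate 2), and its p53 KO libraries, at 7.45 to 9.38 CPM, lay below all controls. LAMP3, a lysosomal membrane protein, fell against parental cells (log2 fold change -0.42, adjusted p = 0.0295, lost without parental replicate 1, parental replicate 2 or any 1 of the p53 KO libraries). IFI35 did not pass in either comparison (0.37 and 0.09) with all libraries, and passed against parental cells without Ctrl replicate 1.

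In all, 29 of the 50 genes had all 3 p53 KO libraries above all 6 control libraries (58.0%, against 11.9% of all genes tested) and 3 had them below (DTX3L, IFI27 and PLSCR1, against 10.1% of all genes tested). Of the 34 genes between the strongly induced and the unmoved, 19 rose against both controls, 6 rose against parental cells alone, 3 rose against Ctrl cells alone, 2 fell against both (DTX3L and PLSCR1, against 5.25% of all genes tested), 1 fell against parental cells alone (LAMP3) and 3 fell against Ctrl cells alone (PARP9, IFI27 and RTP4). Of those that fell, DTX3L, PLSCR1, LAMP3, PARP9 and RTP4 lie on chromosome 3. Around each, the median change of the 20 nearest tested genes outside the list was negative in both comparisons, as given below. PARP9 and RTP4 themselves did not fall against parental cells. Their log2 fold changes there were 0.02 and 0.53 (adjusted p = 0.889 and 0.0529), and that of RTP4 passed by DESeq2. That a gene passed in 1 comparison and missed in the other does not show that the comparisons differed. Against all genes tested, 8.36% fell by adjusted p alone against parental cells and 14.2% against Ctrl cells.

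The starting levels of the strongly induced and the unmoved genes were as follows. Per kb of canonical transcript, parental levels were 0.0312 to 55.6 CPM in the 7 strongly induced genes (median 0.684) and 6.55 to 219 CPM in the 9 unmoved genes (median 19.0). The mean parental level was under 10 CPM in 5 of the 7 and in 1 of the 9 (IFI35). In p53 KO cells the medians were 4.54 and 18.9 CPM per kb. CMPK2 and IFI44L were close to the floor in parental cells and would not have passed a filter of 10 counts in every library. Without them the 5 other strongly induced genes started at 0.647 CPM per kb or more, and their medians were 1.47 CPM per kb in parental and 27.4 CPM per kb in p53 KO cells, so that the order of the medians in p53 KO cells rested on these genes. IFIT3 and OASL were the strongly induced genes that started high, at 55.6 and 27.4 CPM per kb. The 95% intervals of the unmoved genes reached from -0.33 to 0.83 against parental and from -0.53 to 0.72 against Ctrl cells, so none of them reached 1.5, whereas a rise like that of IFI16 against parental cells lies inside the widest of them. The groups were set by the test itself, so these levels are a description, with no test between the groups.

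Several of the genes lie in clusters, and differences between the members of a cluster were not tested. For each gene, the 20 nearest tested genes outside the list gave a local median. Around RSAD2 and CMPK2 that median was 0.11 against parental and 0.04 against Ctrl cells, around IFI44 and IFI44L it was 0.02 and -0.01, and around OAS1, OAS2 and OAS3 0.05 and 0.03, so the neighbours of these genes were close to 0. Around the IFIT cluster the local median was 0.45 and 0.64, which is close to the change of IFIT5 and below that of IFIT3. Around PARP9, DTX3L and PARP14 it was -0.29 and -0.73, and these genes lay above it or close to it. Around PLSCR1, LAMP3 and RTP4, also on chromosome 3, the local median was -0.24, -0.33 and -0.36 against parental cells. Against Ctrl cells it was -0.35, -0.63 and -0.41. Around IFI27, which also fell, the local median was 0.04 and 0.09. Around SAMD9 and SAMD9L it was 0.27 and 0.49. Of the 50 genes, 45 lay above their local median against parental and 43 against Ctrl cells. For 12 and 14 genes, respectively, the local median was more than 0.25 from 0, and the part of the neighbourhood in their values was not tested. These counts were not made over all genes tested, so whether such shares are unusual is not known.

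**Figure D3:**
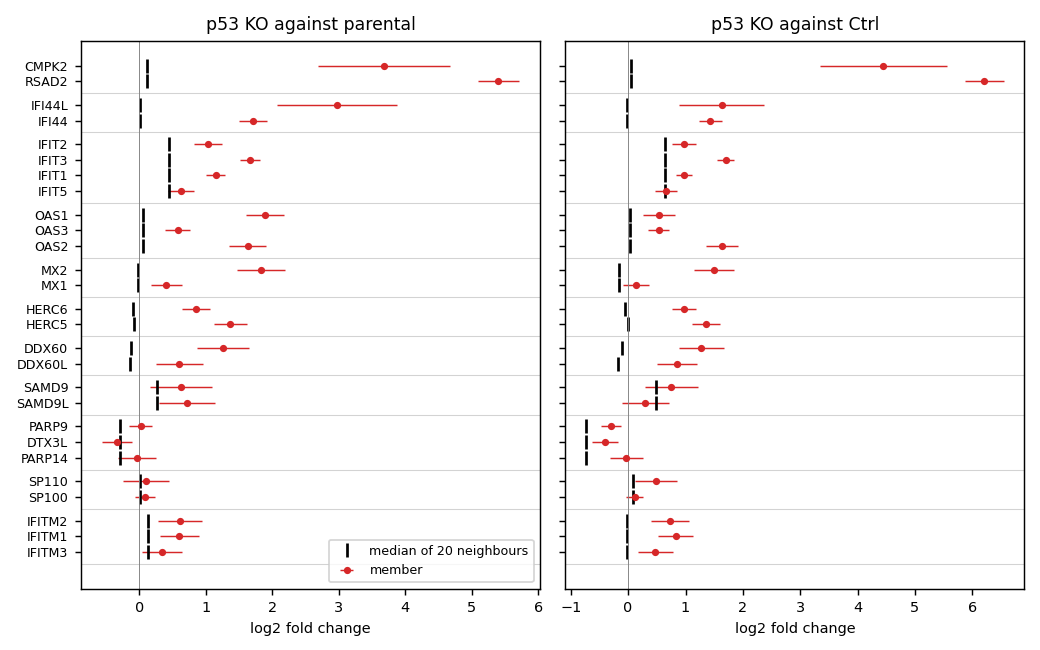
Log2 fold change of the genes that lie in 11 clusters (points, with 95% confidence intervals) and the median of the 20 nearest tested genes outside the list (black ticks), for p53 KO against parental (left) and against Ctrl cells (right). The ticks lie close to 0 in most clusters, at 0.45 and 0.64 around the IFIT genes and at -0.29 and -0.73 around PARP9, DTX3L and PARP14.

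Ctrl and parental cells both keep the mutant p53, and the comparison between them shows how far the genes differ between these lines, without the p53 edit. It covers 1 pair of lines, so it does not measure how far the genes vary between lines in general. No gene of the 50 was called (1.94% of all genes tested were), by edgeR or by DESeq2. At an unadjusted p under 0.05 in edgeR there were 19 (15 higher and 4 lower in Ctrl cells). How many of all genes tested reached that threshold was not counted. By adjusted p alone 7 rose in Ctrl cells (LGALS3BP, OAS1, PARP9, PLSCR1, RTP4, USP18 and XAF1, against 10.6% of all genes tested) and 2 fell (EPSTI1 and RSAD2, against 9.69%). OAS1, given above, rose by 1.35 (SE 0.13, adjusted p = 7.4e-05). RSAD2 fell by 0.81 on the log2 scale (adjusted p = 0.013, lost without parental replicate 1), USP18 rose by 0.41 (adjusted p = 0.00932, lost without parental replicate 2), and PARP9 rose by 0.32 (adjusted p = 0.0163, lost without any 1 of the parental libraries or Ctrl replicate 2).

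XAF1, which opposes an inhibitor of apoptosis, was at 1.19, 1.08 and 0.969 CPM in parental, 3.06, 2.74 and 3.13 CPM in Ctrl and 3.35, 3.00 and 3.13 CPM in p53 KO cells. It was thus called in p53 KO against parental cells (1.54, SE 0.15, adjusted p = 8.97e-05) a call lost without parental replicate 3 or p53 KO replicate 1, and did not pass against Ctrl cells (0.09, 95% interval from -0.20 to 0.38), and Ctrl cells were 1.45 above parental cells (SE 0.15, adjusted p = 0.000129), a difference that was called without parental replicate 1 or Ctrl replicate 2. RTP4, a chaperone of receptors, was at 2.10, 2.81 and 2.63 CPM in parental, 6.88, 5.13 and 5.30 CPM in Ctrl and 3.52, 3.38 and 4.02 CPM in p53 KO cells. It rose in Ctrl against parental cells (1.19, adjusted p = 0.000668) and fell by 0.66 on the log2 scale in p53 KO against Ctrl cells (adjusted p = 0.00798), so the p53 KO libraries lay between the control groups. LGALS3BP, a secreted glycoprotein, was at 490 to 492 CPM in parental, 543 to 730 CPM in Ctrl and 580 to 671 CPM in p53 KO cells. Its rise in Ctrl cells (0.36, adjusted p = 0.0289) was lost without any 1 of the parental libraries or Ctrl replicate 2, and its rise in p53 KO against parental cells (0.33, adjusted p = 0.043) without any 1 of the parental libraries, any 1 of the p53 KO libraries or Ctrl replicate 2.

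**Figure D4:**
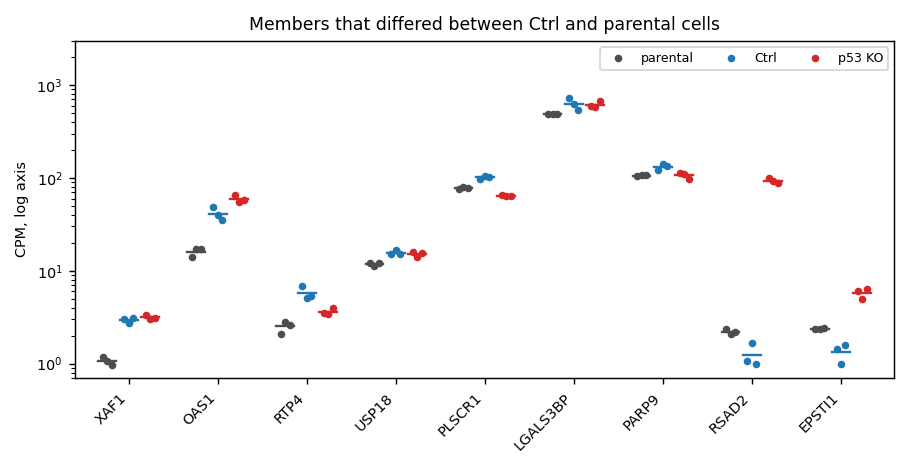
CPM in each library (points, log axis) with group means (lines) for the 9 genes that differed between Ctrl and parental cells at an adjusted p of at most 0.05. In XAF1 and USP18 the Ctrl and p53 KO points overlap above the parental points, and in RSAD2 and EPSTI1 the Ctrl points lie below the parental points and the p53 KO points above them.

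A separate list of 40 genes held 10 interferon genes and genes that carry their signal. IFNA1 and IFNA2 were its only alpha interferons, and interferon genes outside the list were not examined. Of these, 28 could be tested. Of 10 interferon genes none could be tested. IFNA1, IFNA2, IFNB1, IFNK, IFNW1, IFNG, IFNL2 and IFNL3 had 0 counts in all 9 libraries, where a count of 0 allows up to 3 counts per library by counting error. IFNE and IFNL1 did not pass 14 counts in any library. Polyadenylated RNA of the cultures at the time of harvest is what was measured, so secreted interferon protein was not.

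Of the 28 genes tested, 7 rose and 2 fell against parental cells, and 10 rose and 2 fell against Ctrl cells. None was called in either comparison by edgeR or by DESeq2. In the test of edgeR 11 and 14 had an unadjusted p under 0.05, a share not counted over all genes tested. Of all genes tested, 9.77% rose and 8.36% fell against parental cells, and 15% rose and 14.2% fell against Ctrl cells. The shares called were 1.23% higher and 0.717% lower against parental, and 2.18% and 1.11% against Ctrl cells. No call among 28 genes is close to those shares. Among those that rose were the cytosolic RNA sensors of the RIG-I family. DDX58, which encodes RIG-I, was at 56.0, 55.6 and 65.9 CPM in parental, 39.0, 51.6 and 48.1 CPM in Ctrl and 128, 125 and 115 CPM in p53 KO cells, and rose by 1.06 (SE 0.11, adjusted p = 0.000124) and 1.41 (SE 0.11, adjusted p = 6.65e-06). IFIH1, or MDA5, rose by 0.53 and 0.85, and DHX58, or LGP2, by 1.20 and 0.88. TLR3, a sensor of double-stranded RNA in endosomes, did not pass, with 0.51 (adjusted p = 0.122) and 0.24 (adjusted p = 0.421). TMEM173, which encodes STING, and the kinase IKBKE also rose against both.

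Among the transcription factors, STAT2 had -0.10 (adjusted p = 0.432) and -0.23 (adjusted p = 0.0525). Its p53 KO libraries, at 38.61, 38.75 and 33.09 CPM, lay below all controls, of which the lowest was 39.08 CPM. The same order held in 10.1% of all genes tested. IRF9 stayed below 1 CPM in every library, which left its log2 fold changes of -0.01 and 0.49 with standard errors of 0.39 and 0.42. IRF7 had 0.55 (adjusted p = 0.181) and 0.20 (adjusted p = 0.608), and IRF1, a primary response factor, rose against parental (0.38, adjusted p = 0.0317) and had -0.07 against Ctrl cells (adjusted p = 0.68). IRF5 fell by 0.49 against parental (adjusted p = 0.0225) and by 1.02 against Ctrl cells (adjusted p = 0.000148). Of the receptors, IFNGR1 rose against both controls (0.55 and 0.41), and IFNAR1 and IFNAR2, which bind the type I interferons, did not pass in either comparison. These are mRNA levels, and the activity of the factors was not measured.

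**Figure D5:**
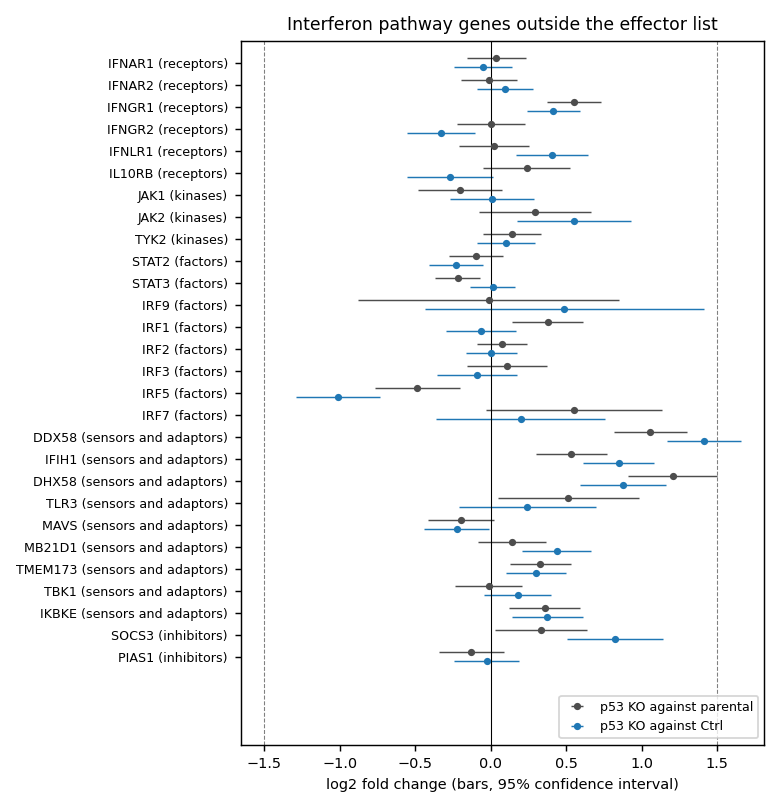
Log2 fold change of 28 interferon pathway genes in p53 KO cells against parental (grey) and Ctrl cells (blue), with 95% confidence intervals as bars and dashed lines at 1.5 on either side. DDX58 and DHX58 lie furthest to the right, IFNAR1 and IFNAR2 lie near 0, STAT2 lies at -0.10 and -0.23, and IRF5 lies lowest.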

How the data were processed

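The deposited file holds raw read counts per gene, 1 column for each of 9 polyA RNA libraries of a strand-specific kit. Per the labels and the methods of the study, the authors checked reads with FastQC, aligned pairs to GRCh38 with STAR 2.5.1b and made these counts with featureCounts on an Ensembl annotation, and the strand setting is not given in the sources used here. Library totals were 19783778 to 29840452 counts, and 30587 of 58051 genes had no count.

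Genes were filtered with filterByExpr at a minimum count of 10, scaled by TMM, and tested with the quasi-likelihood test of edgeR 4.0.16 (R 4.3.3) in 1 fit of 3 groups, with Benjamini-Hochberg adjustment over all 14513 genes tested. A gene was called at an adjusted p of at most 0.05 and a log2 fold change beyond 1.5, and fold changes, SEs and 95% intervals come from that fit. CPM are TMM-scaled and, where levels of genes are compared, divided by the GENCODE 44 canonical transcript length in kb. These intervals include the spread between libraries, whereas the floor of 3 counts covers counting error only, since reads were not counted by molecule.

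Positions are those of GENCODE 44 on GRCh38, and promoters are from RefSeq on GRCh38.p14. The members and lists were chosen with earlier results of these data known. Values in every library are given for genes called up against both controls, for the 6 genes above the adjusted p in both comparisons with the smallest standard errors, and for the 6 others of largest mean absolute change, and genes beyond these were given values after they had been seen. Alternatives were DESeq2 1.42.0, DESeq2 size factors, other filters, fold thresholds, a replicate block, fits of 2 groups and leaving out libraries. The replicate numbers do not mark a shared culture or day in the labels. Some genes, among them the check of the targeted gene, are not reported here.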

Additional observations from a re-analysis of the deposited data

Results flagged for a closer look

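In 3 of the 50 genes, all Ctrl libraries lay on one side of the parental libraries and all p53 KO libraries on the other. How many of all genes tested have this order was not counted, so whether 3 of 50 is unusual is not known. The 3 genes were picked by this order. The p53 KO against Ctrl values and the Ctrl against parental tests below describe it and do not test it independently. RSAD2 was lower in Ctrl and higher in p53 KO than in parental cells, with a log2 fold change between p53 KO and Ctrl cells of 6.21. EPSTI1 did the same, with 2.13. PLSCR1 was higher in Ctrl and lower in p53 KO than in parental cells, with -0.67. Each of the 3 passed the test in Ctrl against parental cells, which that choice favours, and RSAD2 no longer did without parental replicate 1. The cause of the order was not tested.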

How the results depend on the processing

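No called direction reversed under any alternative. With a log2 fold change of at least 1 in place of 1.5, 18 genes were called against parental and 14 against Ctrl cells. At that threshold 13 were called higher against both and 3 were called in Ctrl against parental cells. The shares of all genes tested at that threshold were not counted. By adjusted p alone the counts were 35 (32 higher and 3 lower), 34 (29 and 5), 26 higher against both, and 9 (7 and 2). Another 2 were lower against both. Leaving out each library in turn gave 10 to 11, 5 to 8, 4 to 7 and 0 to 1. DESeq2 gave 11, 8, 7 and 0, DESeq2 size factors 11, 7, 6 and 0, fits of 2 groups 11, 7, 6 and 0, and at least 10 counts in every library, which removed CMPK2 and IFI44L, 9, 6, 5 and 0. Leaving out both Ctrl replicate 1 and p53 KO replicate 3, chosen after seeing the data, gave 11, 8, 7 and 0.

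The replicate block gave 11, 8, 7 and 0 as well. Same-numbered libraries did not deviate together (correlations from -0.348 to 0.0409), so the numbers were not taken as pairs. The number of unmoved genes was 8 to 18 over the alternatives, against 9, and was 15 under the replicate block and 18 without p53 KO replicate 1.

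With 3 libraries a group, a difference of the size of GBP1 against Ctrl cells sat at the threshold. At this depth CMPK2 was at or near the floor of 3 counts in the controls. So were the listed interferon genes except IFNE, which reached 14 counts.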
